A study of Mus musculus with 4 samples.

Results

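The 4 receptors of the ErbB family (Egfr, Erbb2, Erbb3 and Erbb4), 5 genes of EGF-like ligands (Hbegf, Tgfa, Btc, Nrg1 and Nrg2) and the feedback inhibitor gene Errfi1 were followed in neural stem cells (NSCs) that differentiated toward oligodendrocyte precursor cells (OPCs) after knockdown of the long non-coding RNA lnc-OPC. These 10 genes were taken by symbol from a table of 22608 genes, and 9 of them were among the 14090 genes with enough reads to be tested. NSCs from the cortex of embryonic CD-1 mice, an outbred stock, were grown with EGF and FGF at 20 ng/ml each, infected with a hairpin lentivirus and kept in puromycin to remove uninfected cells. They were then differentiated over 3 days in 20 ng/ml CNTF, a cytokine, and 40 ng/ml T3, a thyroid hormone. Polyadenylated RNA was sequenced from 2 libraries of cells with a hairpin against lnc-OPC (knockdown) and 2 libraries of cells with a hairpin against luciferase, an insect enzyme (control). EGF itself was listed for the growth medium of both groups and was not named among the additives of the differentiation medium. Both knockdown libraries carried a single hairpin, sh-lnc-OPC2, so that its effects on other transcripts cannot be told apart from those of lnc-OPC loss. The level of lnc-OPC was not analysed here, and the groups rest on the labels. The labels call the repeats biological, without saying whether they came from separate cultures or animals, so that p-values measure the spread between these libraries only.

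The strand of each hairpin that pairs with its target is shown because its seed, bases 2 to 8 in capitals, can also pair with other mRNAs.
sh-lnc-OPC2: aACAGAAGgttagtgacgttc
sh-luc: gGCGTATCtcttcatagcc
The sh-luc strand was read from the stem of the listed hairpin oligonucleotide, whose target differed from the luciferase target listed beside it.

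ErbB receptors are tyrosine kinases of the cell surface that work in pairs. EGFR binds EGF, HB-EGF, TGF-alpha and betacellulin, ERBB3 and ERBB4 bind neuregulins, and ERBB2 has no known ligand of its own and serves as a partner of the others. ERBB3 has little kinase activity and signals through its partners. Activated pairs feed the Ras-ERK and PI3K-AKT pathways, and the Errfi1 product, also called MIG6, binds the kinase domain and dampens the signal. In neural tissue EGFR drives growth of stem and progenitor cells, while neuregulins act on glia, including Schwann cells and cells of the oligodendrocyte lineage.

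The knockdown libraries had 49663413 and 50098577 reads in genes and the control libraries 49584378 and 46144779, of which the 10 genes held between 0.0382% and 0.0432%. Markers are counted as higher or lower at an adjusted p below 0.05 by edgeR, a test of read counts. Over all 14090 genes tested, that rule called 23.5% higher and 23.3% lower. Among 10 markers of OPCs, 8 were lower in the knockdown and 0 higher. Their summed level was 1948 and 1877 counts per 1000000 scaled reads (CPM) in knockdown libraries, against 2700.05 and 2726.5 CPM in control libraries. Of 9 myelin and mature oligodendrocyte markers tested, 8 were lower and 0 higher, with a sum of 657 and 633 CPM in the knockdown and 1158 and 1061 CPM in the control. Astrocyte markers summed to 7419 and 7529 CPM in the knockdown and 5052 and 5147 CPM in the control, with 5 of 9 higher and 2 lower, and 10 NSC markers moved both ways (4 higher, 3 lower; sums of 16189 and 16514 CPM in the knockdown, 13654 and 13503 CPM in the control). Without Vim, an intermediate filament gene, the other NSC markers summed to 4618 and 4512 CPM in the knockdown and 5057 and 4865 CPM in the control, the opposite direction. Of 9 neuron markers 4 were higher and 2 lower, with sums of 267 and 264 CPM in the knockdown and 287 and 303 CPM in the control. Markers of all these lineages were present in every library. The microglia markers C1qa, C1qb, Cx3cr1, Tmem119 and Tyrobp had 0 reads in all libraries, as did Cdh5 and Cldn5 of endothelium and Dcn and Lum of fibroblasts, while the endothelial and mural list summed to 171 and 172 CPM in the knockdown and 445 and 417 CPM in the control, mostly Acta2 and Kdr, 3 of 4 tested being lower and 1 higher. In such bulk RNA, fewer cells of a type and less RNA per cell cannot be told apart, and the part of these shifts in the results below was not tested.

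The receptors moved apart after lnc-OPC knockdown. Egfr was higher, Erbb4 and Erbb3 were lower, and Erbb2 was not called. Among the ligands, Hbegf and Nrg1 were higher and Tgfa was lower, while Errfi1 was slightly lower. By the quasi-likelihood test of edgeR, with adjusted p below 0.05 as the threshold, 3 members were higher and 4 lower, 2 were not called and 1, Btc, had too few reads to be tested. Over all 14090 genes the same rule called 46.7%, with 23.5% higher and 23.3% lower, so many genes differed between these libraries, most of them by small amounts. The median size of the log2 change was 0.43 for the 9 members tested and 0.17 for all genes tested. The members were chosen with earlier results of these data known, so these medians only describe them. None of the 9 changed more than 2-fold (the largest, that of Erbb3, was 1.83-fold). Over all genes 3.82% were called past 2-fold, a share too small for 9 genes to show a contrast. The values of knockdown and control libraries did not overlap in 9 of the 10 members, nor in 72.6% of genes tested.

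**Figure D1:**
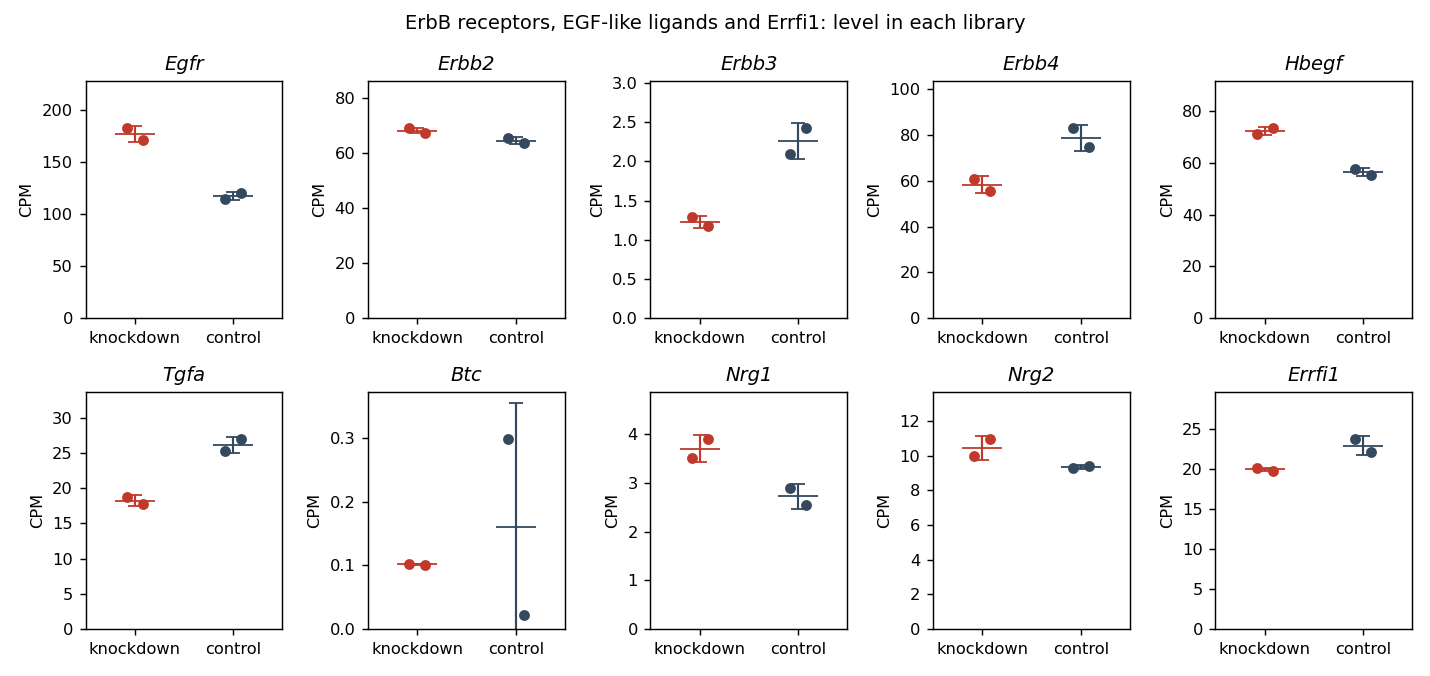
Level of each of the 10 genes in CPM (vertical axis, from 0, own scale per panel) in 2 knockdown libraries, red, and 2 control libraries, dark slate; points are libraries, and bars are the mean and SD (n = 2; that of Btc in the control is cut at 0). Groups are separate in every panel but that of Btc, with Egfr, Hbegf and Nrg1 higher and Erbb3, Erbb4, Tgfa and Errfi1 lower in the knockdown.

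Egfr, the receptor for EGF, was the most abundant member by CPM. It had 182 and 172 CPM in the knockdown libraries, against 115 and 120.4 CPM in the control libraries. Both knockdown values lay well above both controls. The mean was 177 ± 7.5 CPM in the knockdown and 118 ± 3.87 CPM in control cells (SD, n = 2 each), a 1.5-fold increase with a log2 change of 0.59 (SE 0.03, 95% interval 0.52 to 0.66, edgeR adjusted p = 9.31e-16). Egfr was the member with the smallest adjusted p, and 88.4% of tested genes changed by less. The astrocyte marker sum was also higher, with and without Gfap, another intermediate filament gene, which had 2301 and 2415 CPM in the knockdown and 699.6 and 772 CPM in the control. Without Gfap the sum was 5118 and 5114 CPM in the knockdown and 4352 and 4374 CPM in the control. The list was not uniform, since Aqp4 and Sox9, named after their values were seen, were lower (810 and 553 CPM in the knockdown, against 933 and 638 CPM in the control). The part of these markers in the Egfr level was not tested. The gene lies on chromosome 11. An antisense gene, Egfros, lies within it without sharing exon bases.

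The 3 genes of at least 10 CPM whose centred log2 CPM lay nearest to that of Egfr over the 4 libraries were Gnptab, Srl and Amn1, at distances of 0.0344, 0.0470 and 0.0482. Their log2 changes were 0.56, 0.58 and 0.55. With 4 libraries in 2 groups, such a likeness says little beyond the shared size of the difference.

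Erbb4, a neuregulin receptor, moved the other way. It had 60.9 and 55.8 CPM in the knockdown libraries, against 82.9 and 74.7 CPM in the control libraries. The groups did not overlap, although the controls lay further apart than the knockdown libraries. Erbb4 fell 1.35-fold, with a mean of 58.4 ± 3.66 CPM in the knockdown and 78.8 ± 5.84 CPM in control cells (SD, n = 2 each; log2 change -0.43, SE 0.05, edgeR adjusted p = 4.04e-08). Its gene on chromosome 1 contains other annotated genes on the same strand, none of which shares exon bases with it.

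Erbb3, the neuregulin receptor that relies on its partners, was far scarcer than the other receptors. Its read counts were 63 and 58 in the knockdown libraries and 105 and 113 in the control libraries, or 1.28 and 1.17 CPM against 2.09 and 2.42 CPM. Erbb3 fell 1.83-fold, the largest change among the members (log2 change -0.87, SE 0.24, 95% interval -1.37 to -0.38, edgeR adjusted p = 0.00352). The call was lost without control replicate 2 (log2 change -0.77, edgeR adjusted p = 0.0659). Most markers of the oligodendrocyte lineage were lower beside Erbb3 and Erbb4. Cspg4 and Lhfpl3 of the OPC list, named after their values were seen, were not called. Cspg4 had 43.7 and 42.2 CPM in the knockdown and 38.8 and 40.4 CPM in the control. The neuron marker sum was lower too, although 4 of 9 neuron markers were higher and 2 lower. Olig2, a transcription factor of that lineage, had 398 and 396 CPM in the knockdown and 514 and 544 CPM in the control. The part of the marker shifts in the receptor levels was not tested.

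Erbb2, the partner without a ligand, differed least. Its levels were 69 and 67.5 CPM in the knockdown libraries, against 65.5 and 63.6 CPM in the control libraries. The values did not overlap. The log2 change was 0.08, with a 95% interval of -0.0055 to 0.17 (edgeR adjusted p = 0.12). Erbb2 shares 9 exon bases with Mien1 on the opposite strand.

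**Figure D2:**
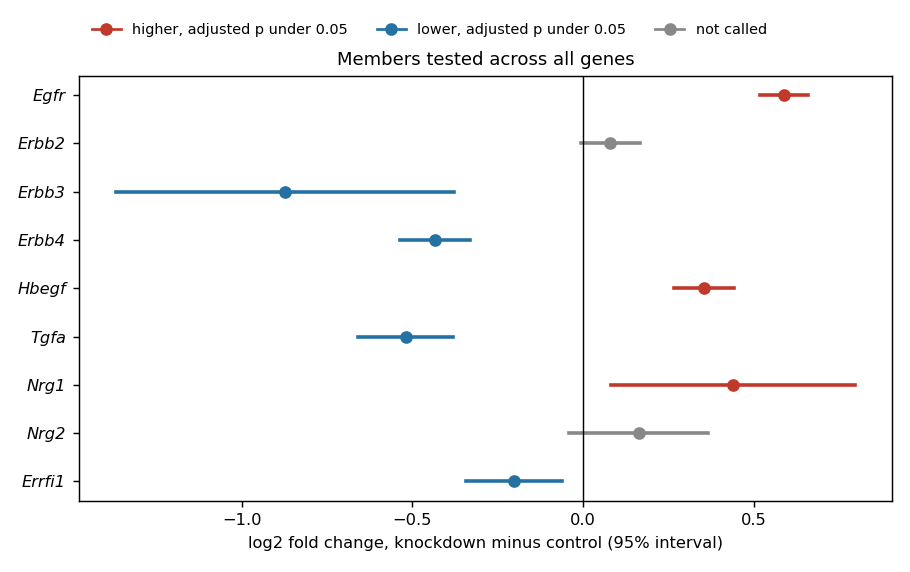
Log2 fold change of knockdown minus control (horizontal axis) for the 9 tested members, with 95% intervals from the edgeR fit. Egfr, Hbegf and Nrg1 lie above 0, Erbb3, Erbb4, Tgfa and Errfi1 below, and the intervals of Erbb2 and Nrg2 include 0, those of Erbb3 and Nrg1 being the widest.

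To compare levels between receptors, CPM were divided by exon length in kilobases. Egfr then had 16.6 and 15.7 CPM per kb in the knockdown, against 10.5 and 11 CPM per kb in the control, and Erbb2 had 13.8 and 13.5 CPM per kb in the knockdown and 13.1 and 12.7 CPM per kb in the control. The order of both receptors on this scale thus differed between groups, Egfr being the higher in both knockdown libraries and Erbb2 in both controls. The lengths come from GENCODE and the annotation used for counting is not given, so this order depends on the lengths chosen. Erbb4 came next, with 5.04 and 4.61 CPM per kb in the knockdown and 6.86 and 6.18 CPM per kb in the control. Erbb3 was last in every library, at 0.214 and 0.195 CPM per kb in the knockdown and 0.348 and 0.402 CPM per kb in the control. Without the division by length, Egfr was the highest receptor in all 4 libraries.

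As a share of the summed receptor level per length, Egfr made up 46.4% ± 0.35 in the knockdown and 35.2% ± 1.56 in control cells (SD, n = 2 each). Erbb4 made up 13.9% ± 0.387 in the knockdown and 21.4% ± 1.34 in the control. Erbb2 accounted for 39.1% ± 0.754 in the knockdown and 42.2% ± 0.369 in the control, and Erbb3 for 0.586% ± 0.0174 and 1.23% ± 0.14. Shares are bound to each other, so the gain of Egfr lowers the rest. With 2 libraries against 2, the exact two-sided permutation test cannot go below p = 0.333, the value it gave for each receptor. The ratio of Egfr to Erbb4 per length was 3.3 and 3.4 in the knockdown libraries and 1.53 and 1.78 in the control libraries. The summed receptor level was 35.7 and 34 CPM per kb in the knockdown, against 30.8 and 30.3 CPM per kb in the control.

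**Figure D3:**
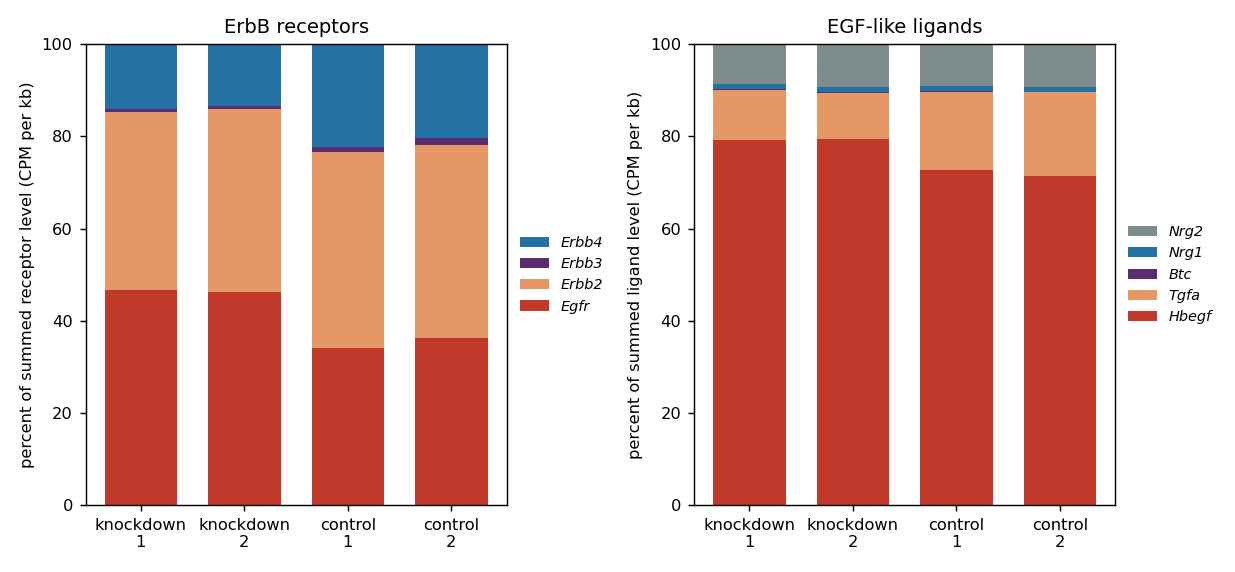
Share of each gene in the summed level of the 4 receptors (left) and 5 ligands (right), in percent of CPM per kb, with 1 bar per library. Egfr takes 46.7% and 46.2% of receptor level in the knockdown and 34.1% and 36.3% in the control, and Hbegf takes 79.1% and 79.3% of ligand level in the knockdown and 72.7% and 71.3% in the control.

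Promoters from RefSeq were kept for 6 of the 10 genes, which does not mean that RefSeq lists none for the rest. Those of Egfr and Erbb4, the receptors with opposite changes and many reads, are shown as the 250 bases before the start (build GRCm38.p6). Capitals mark the GC box, GGGCGG or its complement CCGCCC, a sequence that Sp1-type factors bind. The Egfr window is chr11:16751953-16752202 on the plus strand, and the Erbb4 window is chr1:69108060-69108309 on the minus strand.
Egfr: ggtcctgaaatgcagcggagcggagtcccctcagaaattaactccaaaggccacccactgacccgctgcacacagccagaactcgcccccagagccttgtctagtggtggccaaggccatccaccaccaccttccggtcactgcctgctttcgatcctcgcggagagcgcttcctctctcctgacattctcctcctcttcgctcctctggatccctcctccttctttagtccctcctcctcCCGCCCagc
Erbb4: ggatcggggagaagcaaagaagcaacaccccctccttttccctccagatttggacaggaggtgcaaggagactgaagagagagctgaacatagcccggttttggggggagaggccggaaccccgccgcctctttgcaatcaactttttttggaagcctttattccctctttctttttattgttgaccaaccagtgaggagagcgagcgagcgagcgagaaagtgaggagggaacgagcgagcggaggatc
Egfr had 1 GC box, which began 9 bases before the start, and a GC content of 60.8%. Erbb4 had 0 GC boxes and a GC content of 54%, where the median of all 32851 listed windows was 52.4%. GC boxes were in 32.7% of all windows. Neither window held a TATA box (TATAAA or TTTATA, 12.4% of windows), an E-box (CANNTG, 66.2%) or an AP-1 site (TGANTCA, 6.7%), searched on both strands. These are letter matches, and binding was not measured.

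Hbegf, which encodes a heparin-binding ligand of EGFR and ERBB4, was the main ligand in every library. It had 71.1 and 73.2 CPM in the knockdown libraries, against 57.6 and 55.2 CPM in the control libraries. Both knockdown values were above both controls. Hbegf rose 1.28-fold (72.1 ± 1.5 CPM in the knockdown and 56.4 ± 1.73 CPM in control cells, SD, n = 2 each; log2 change 0.35, SE 0.04, edgeR adjusted p = 2.74e-08).

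Tgfa, which encodes the EGFR ligand TGF-alpha, fell. It had 18.8 and 17.7 CPM in the knockdown libraries, against 25.4 and 27 CPM in the control libraries. The groups were clearly apart. The decrease was 1.43-fold (18.2 ± 0.772 CPM in the knockdown and 26.2 ± 1.14 CPM in control cells, SD, n = 2 each; log2 change -0.52, SE 0.07, edgeR adjusted p = 1.21e-07). The ratio of Hbegf to Tgfa per length was 7.21 and 7.89 in the knockdown libraries and 4.33 and 3.9 in the control libraries. Tgfa shares 118 exon bases with the predicted gene Gm43917 on the opposite strand, whose reads a kit without strand marking cannot separate.

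Nrg1, the main neuregulin gene of glial biology, was scarce. Its read counts were 172 and 193 in the knockdown libraries and 146 and 119 in the control libraries, or 3.51 and 3.9 CPM against 2.91 and 2.55 CPM. Nrg1 rose 1.36-fold (log2 change 0.44, SE 0.18, 95% interval 0.08 to 0.80, edgeR adjusted p = 0.0391). The call was lost in 5 of 11 alternatives, among them DESeq2 (adjusted p = 0.147), and without knockdown replicate 2 (0.202), control replicate 1 (0.0677) or control replicate 2 (0.204), and 482 of its exon bases overlap Gm26578 on the opposite strand.

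Nrg2, a second neuregulin gene, had 9.97 and 11 CPM in the knockdown libraries and 9.28 and 9.42 CPM in the control libraries. It was not called (log2 change 0.16, 95% interval -0.04 to 0.37, edgeR adjusted p = 0.188). Btc, which encodes betacellulin, had 5 and 5 reads in the knockdown libraries and 15 and 1 in the control libraries. Its control values lay on both sides of the knockdown values, and no difference was detectable at this depth.

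Hbegf made up 79.2% ± 0.15 of the summed ligand level per length in the knockdown and 72% ± 1.02 in control cells (SD, n = 2 each). Tgfa made up 10.5% ± 0.643 in the knockdown and 17.5% ± 1.05 in the control. Nrg2 followed at 8.93% ± 0.427 in the knockdown and 9.27% ± 0.248 in the control, then Nrg1 at 1.23% ± 0.0692 and 1.05% ± 0.0809. On this scale the order Hbegf, Tgfa, Nrg2, Nrg1 and Btc was kept in all 4 libraries. The summed ligand level was 37.8 and 38.8 CPM per kb in the knockdown, against 33.4 and 32.6 CPM per kb in the control.

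The letters CTTCTGT, the match to the sh-lnc-OPC2 seed, were in the longest annotated 3′ UTR of 3 members. They are Tgfa with 2 and Erbb4 and Nrg1 with 1 each, and 24.7% of 12220 tested genes with an annotated 3′ UTR held at least 1. The sites are shown with 10 bases on each side, in GRCm38 at chr1:68037744-68037770 (minus strand) for Erbb4, chr6:86273259-86273285 and chr6:86275462-86275488 (plus strand) for Tgfa, and chr8:31815683-31815709 (minus strand) for Nrg1. Capitals mark the seed match.
Erbb4: aatataatcaCTTCTGTgttcttatcc
Tgfa site A: tggtttgaagCTTCTGTcagaagctgc
Tgfa site B: atctttctgaCTTCTGTatatgatgca
Nrg1: gattttttttCTTCTGTgctttatctg
Tgfa and Erbb4 were lower in the knockdown and Nrg1 was higher. The 3′ UTRs of Tgfa, Erbb4 and Nrg1, at 3764, 7855 and 3477 bases, were longer than the median of 1234 bases, and that of Egfr, at 6303 bases, held 0 matches. None of the 10 members held GATACGC, the match to the sh-luc seed, which 0.9% of these genes held. Whether the hairpin acts on these sites was not tested.

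Errfi1, which encodes the ErbB inhibitor MIG6 and is itself induced by EGFR signalling, was slightly lower. It had 20.1 and 19.7 CPM in the knockdown libraries, against 23.7 and 22.1 CPM in the control libraries. The groups did not overlap. The decrease was 1.15-fold (log2 change -0.20, SE 0.07, 95% interval -0.34 to -0.06, edgeR adjusted p = 0.0162). The call was lost with DESeq2 (adjusted p = 0.0855), without knockdown replicate 2 (0.0662) and without control replicate 1 (0.174).

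Other genes of the pathway were described from 5 lists holding 108 genes, of which 100 were tested. In all, 38 were higher and 26 lower, and the median log2 change was 0.04, where that of all genes tested was 0.002. Over all genes tested, 46.7% were called, 23.5% as higher and 23.3% as lower, and the counts of each list below stand beside those shares. The remaining EGF-like ligands had few reads. Egf had 1.62 CPM in the knockdown and 1.97 CPM in the control and Nrg4 had 1.35 and 1.33 CPM, and neither was called by edgeR or DESeq2 (0 of 2 also at an unadjusted p under 0.05). Areg, Epgn and Ereg had too few reads to be tested. Nrg3 had 0 reads in every library, which allows a level of up to 0.0642 CPM (3 reads in the shallowest library, counting error only).

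Genes that release or hold membrane-bound ligands moved both ways. Of 17 tested, 5 were higher and 5 lower, with a median log2 change of 0.02. Adam10, a sheddase of several EGF-like ligands, had 320.3 and 316 CPM in the knockdown libraries, against 145 and 150.1 CPM in the control libraries. The groups were far apart, with a 2.16-fold increase (log2 change 1.11, edgeR adjusted p = 1.32e-24), and Adam15 rose 1.58-fold. Adam17, the main sheddase of TGF-alpha and HB-EGF and named here after its values were seen, had 109 and 114 CPM in the knockdown and 99.7 and 97.4 CPM in the control, a 1.13-fold increase. Timp3, an inhibitor of such proteases, fell 1.53-fold and Cd9, which encodes a tetraspanin that associates with HB-EGF, fell to 289 CPM in the knockdown, against 346 CPM in the control. The higher genes numbered 3 without control replicate 1, and the lower genes 3 with DESeq2 or without knockdown replicate 2.

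Of 17 tested genes listed here as ErbB attenuators, 8 were lower and 3 higher, with a median log2 change of -0.05. Whether each product attenuates ErbB signalling in these cells was not tested. Lrig1, which promotes the loss of ErbB receptors and is itself a marker of stem cells, rose 1.35-fold (695 CPM in the knockdown and 515 CPM in the control, edgeR adjusted p = 1.56e-14), and the endocytic gene Sh3gl2 rose 1.61-fold. Sh3kbp1, which encodes a partner of the ubiquitin ligase CBL, fell 1.32-fold and Socs3 fell 1.15-fold. Without control replicate 1 the lower genes numbered 5.

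Among adaptors and effectors, 16 of 41 were higher and 12 lower, with a median log2 change of 0.04. Map2k1, which encodes the ERK kinase MEK1, rose 1.34-fold, the adaptor gene Shc3 rose 1.55-fold and the Ras gene Nras rose to 273 CPM in the knockdown, against 219.6 CPM in the control. Without control replicate 2 the lower genes numbered 7.

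Of 23 ERK-responsive genes tested, 14 were higher, 1 was lower and 8 were not called, with a median log2 change of 0.22, where 23.5% of all genes tested were higher. Cyclin D1, Ccnd1, rose 1.73-fold (130 CPM in the knockdown and 75 CPM in the control, edgeR adjusted p = 2.4e-18). The feedback inhibitor genes Spred1, Dusp6 and Spry2 rose 1.21-fold, 1.26-fold and 1.18-fold. Their relatives in the list, named after their values were seen, did not all rise. Spred2, Spry1, Spry4 and Dusp5 were not called (log2 changes of -0.038, -0.0048, -0.016 and 0.08), while Dusp4 was higher (0.42). Errfi1, also a feedback gene, was lower, with a call that was lost in some alternatives. The number of higher genes in this list was 8 with DESeq2, which called 2540 of all genes higher, in place of 3309. Both numbers also fell without knockdown replicate 2 and without control replicate 1. These genes respond to many signals, and ERK activity was not measured.

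**Figure D4:**
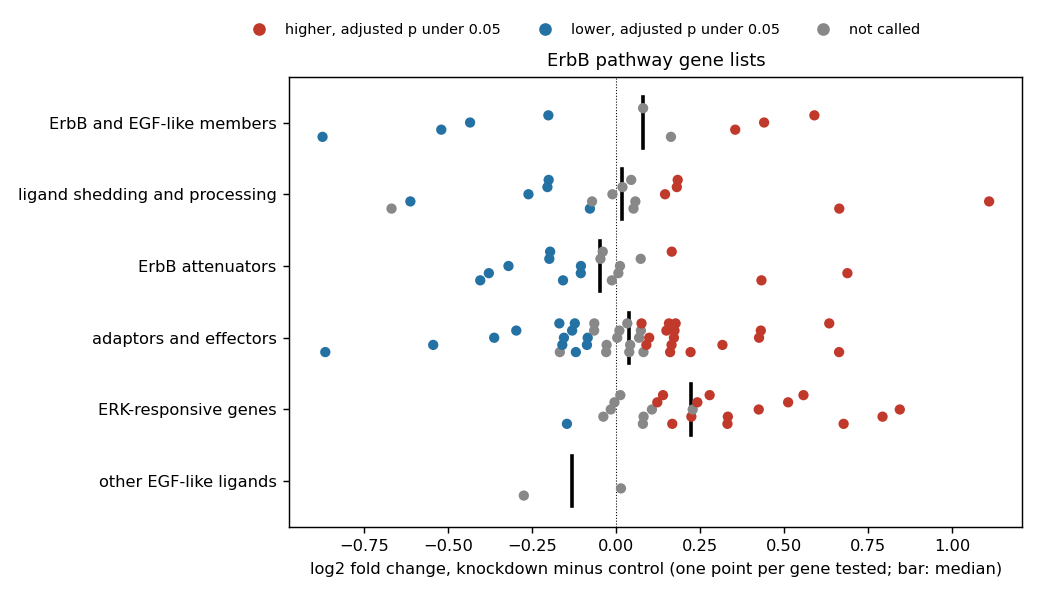
Log2 fold change of knockdown minus control (horizontal axis) for each tested gene of the members and of the 5 pathway lists (rows), with 1 point per gene colored by its call and a bar at the median. The median is 0.22 for ERK-responsive genes and between -0.13 and 0.08 for the other rows, and Adam10 is the point farthest to the right, at 1.11.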

How the data were processed

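Raw gene counts were deposited, made by the authors with HTSeq 0.6.1 from alignments to build mm9. SAMtools 0.1.18, Bowtie 0.12.7 and TopHat 1.3.3 appear in the submitters' processing notes. Which annotation and strand setting were used is not given in the sources used here, so reads of overlapping genes could not be told apart. Reads outside genes (20.1% to 22.2% of listed reads) stayed out of all totals. 2 further deposited tables with the authors' own fold changes, p-values and ontology terms were not used.

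Knockdown was compared with control over all genes with edgeR 4.0.16 (R 4.3.3). Genes passing filterByExpr, with a minimum count of 10 and a minimum total of 15, went into TMM scaling, robust quasi-likelihood and Benjamini-Hochberg adjustment over all genes tested, with no covariate. The study used DESeq with a false discovery rate of 0.05 and a 2-fold change. Each standard error is the log2 change divided by the root of its F statistic. CPM are counts per 1000000 TMM-scaled reads. Exon lengths (basic protein-coding transcripts), overlaps and 3′ UTRs came from GENCODE M21 (GRCm38), names matched for 10 of 10 members, and promoters from RefSeq. No coordinates were taken from the counts' build.

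The members and lists were chosen with earlier results of these data known. Named were all members, the 4 genes of each pathway list with the smallest adjusted p, the 2 most abundant markers or those at 0 of each marker list, and the 3 genes nearest to the member with the smallest adjusted p. Some genes that this rule names are not reported here. Alternatives were RLE or total-count scaling, no filter, a filter of 50 counts in 2 libraries, DESeq2 1.42.0, non-robust dispersion, a replicate block and each library left out. Where a group kept 1 library, that library was assumed to vary like the other group.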

Additional observations from a re-analysis of the deposited data

Results flagged for a closer look

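Reads with more than 1 alignment, which no comparison uses, made up 11.2% and 11.1% of listed reads in the knockdown libraries and 10.7% and 10.9% in the control libraries. Reads that fitted several genes made up 0.434% and 0.431% in the knockdown and 0.428% and 0.427% in the control. Both were above the control level in both knockdown libraries, and their part in any member's count was not tested.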

How the results depend on the processing

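Across 11 alternatives, the calls and directions of Egfr, Erbb4, Hbegf and Tgfa were kept in each, and Erbb2 and Nrg2 stayed uncalled. The adjusted p reached at most 1.24e-05 for Egfr, 0.00128 for Erbb4, 0.000838 for Hbegf and 0.00152 for Tgfa. Nrg1 also lost its call with total-count scaling (adjusted p = 0.0583). Of 297 tests of 27 named genes under alternatives, 9 lost the call, and no called gene changed sign. Nrg4, not called, had a log2 change of 0.01, against -0.02 with total-count scaling, -0.27 without knockdown replicate 1 and -0.18 without control replicate 2. With each library left out in turn, 2 to 3 members were called higher and 3 to 4 lower, and over all genes 2455 to 2855 were higher and 2435 to 2875 lower. Requiring 50 counts in 2 libraries left 143 genes higher over 2-fold, in place of 220, since fewer genes were tested. Without division by length, the gain in share of Egfr was 13.4 percentage points in place of 11.2 and that of Hbegf 9.43 in place of 7.25, and the change was -10.8 in place of -7.49 for Erbb4 and -10.2 in place of -7.01 for Tgfa. Leaving out libraries gave 10.1 to 12.3 for Egfr, 6.53 to 7.97 for Hbegf, -8.44 to -6.55 for Erbb4 and -7.75 to -6.26 for Tgfa. Over the genes tested, the difference between replicates 1 and 2 hardly correlated between knockdown and control (correlation 0.0538). Whether same-numbered libraries shared anything beyond the number was not tested. With the replicate number as a block, 3404 genes were higher and 3377 lower, and 3 members were higher and 4 lower. Depth limits Btc, Erbb3 and Nrg1, whose reads numbered under 200 in each library.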
